A study of Antheraea pernyi with 6 samples.

Results

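Fatty acyl enzymes build, lengthen, desaturate, reduce, activate, carry and oxidise fatty acids. In the deposited table of antennal expression in Antheraea pernyi, the Chinese oak silkmoth, they were taken as the genes whose best protein hit was named as a desaturase, a fatty acyl-CoA reductase, a fatty acid synthase, an elongase of very long chain fatty acids, an acetyl-CoA carboxylase, an acyl-CoA-binding protein, an acyl-CoA synthetase or an acyl-CoA oxidase. That rule gave 74 of 16458 genes. No expression value entered it, although it was chosen with earlier results of these data known. Genes whose names spell out coenzyme A fall outside it.

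The study sequenced mRNA of adult antennae in 6 libraries, 3 labelled female and 3 labelled male. The labels give no strain, treatment or exact age, and nothing says whether the libraries of a label came from separate animals. The p-values below therefore compare libraries, and the spread they rest on may be a technical one.

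In insects, acetyl-CoA carboxylase makes malonyl-CoA, from which fatty acid synthase builds saturated chains. Elongases add carbons to these chains, desaturases place double bonds at fixed positions, and fatty acyl-CoA reductases turn the acyl group into an alcohol. The products enter membranes, storage fat, cuticular hydrocarbons and waxes, and in the pheromone glands of female moths the same enzyme families make sex pheromones.

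Values are FPKM, the fragments counted on a gene, divided by its length and by the size of the library, as deposited by the authors. Library totals implied by the FPKM steps lay between 9392242 and 11180175 reads. The groups are called by their labels because some marker genes leave the labels in doubt. Pheromone-binding protein 1 (GWHGABGR012196), which in many moths is more abundant in males, had 92516 ± 2089 FPKM under the female label and 1273 ± 90.6 FPKM under the male label (SD, n = 3). Another gene of that name (GWHGABGR012197) had 361 FPKM under the female label and 473 FPKM under the male label. Like GWHGABGR012196, pheromone binding protein 3 (GWHGABGR012195) was higher under the female label, at 11729 against 1082 FPKM. So was olfactory receptor 1 (GWHGABGR000138), at 1140 against 0.176 FPKM. Exchanged labels and a true difference of that direction cannot be told apart, so every direction below is between labels. The pheromone-binding protein 1 gene GWHGABGR012196 also took 6.73% to 6.97% of all FPKM in the female-labelled libraries and 0.0889% to 0.101% in the male-labelled ones. Over all 11590 tested genes, the median log2 fold change, male-labelled minus female-labelled, was 0.23 as deposited and 0.02 after median-of-ratios rescaling. Values after rescaling are given beside the counts of fatty acyl enzyme genes called and for those of them whose call it changed, and a change is best read relative to that median.

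Markers of olfactory tissue were present in all libraries and moved both ways. Of 15 tested, 8 were higher and 4 lower in the male-labelled libraries, or 5 and 5 after rescaling. For this and the marker counts below, the shares over all tested genes were 27.8% higher and 9.03% lower. After rescaling those shares were 14.3% and 17.6%. General odorant-binding protein 1 (GWHGABGR012186) had 5239 ± 133 FPKM under the female label and 10391 ± 124 FPKM under the male label (SD, n = 3). The odorant receptor coreceptor, listed as putative chemosensory receptor 2 (GWHGABGR013501), stood at 465 ± 5.9 FPKM in the female-labelled and 176 ± 1.58 FPKM in the male-labelled libraries (SD, n = 3). Markers of fat body and hemolymph (14 genes, 11 tested, 5 higher and 1 lower in the male-labelled libraries, or 4 and 1 after rescaling) summed to 910 to 928 FPKM under the female label and 906 to 952 FPKM under the male label. The log2 ratio of these sums was 0.01 as deposited and -0.24 after rescaling. Apolipophorin-III (GWHGABGR013340), the marker called lower, made up 59.0% of the sum under the female label and 44.2% under the male label. The log2 fold change of apolipophorin-III was -0.40 as deposited and -0.66 after rescaling, while the sum stayed nearly level as deposited. The sum therefore hides both that fall and the markers that were higher. Among the fat body and hemolymph markers, the gene named vitellogenin had 0 reads in the female-labelled and 29 reads in the male-labelled libraries. Markers of hemocytes, the blood cells (7 genes, 4 tested, 3 higher on both scales), summed to 15.6 to 18 FPKM against 27.4 to 30.7 FPKM. The log2 ratio of the hemocyte sums was 0.79 as deposited and 0.54 after rescaling. Hemocytin (GWHGABGR010485) made up 56.3% of that sum under the female label and 54.6% under the male label. Muscle markers (13 genes, 10 tested, 2 higher and 2 lower, or 1 and 2 after rescaling) summed to 71.5 to 81.5 FPKM against 72.3 to 83.6 FPKM. Neuron markers (14 genes, 10 tested, 4 higher and 0 lower, or 2 and 1 after rescaling) summed to 96.6 to 106 FPKM against 101 to 117 FPKM, and a single gene made up 80.8% of that sum under the female label and 71.7% under the male label. The log2 ratio of the neuron sums was 0.08 as deposited and -0.18 after rescaling, and that of the muscle sums -0.02 and -0.28. The part of these cell types in the results below was not tested. In whole antennae, fewer cells of a type and less RNA per cell cannot be told apart.

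Of the 74 fatty acyl enzyme genes, 44 reached the mean of 0.5 FPKM required for testing. The other 30 had means of at most 0.414 FPKM and together gave 155 reads in the female-labelled and 232 reads in the male-labelled libraries. In the tested group 17 genes were higher and 8 were lower in the male-labelled libraries, and 19 did not pass the test (limma, Benjamini-Hochberg adjusted p at 0.05 over all tested genes). That is 38.6% higher and 18.2% lower, beside 27.8% and 9.03% of all tested genes, or 36.9% in either direction. After rescaling the calls were 15 higher and 10 lower, 34.1% and 22.7%, beside 14.3% and 17.6% of all tested genes, or 31.9% in either direction. Of the deposited-scale calls, 15 of 17 higher and 8 of 8 lower were also made after rescaling. The median log2 fold change of the 44 genes was 0.28, or 0.08 after rescaling. The test required a minimum mean over both labels, and 9 of the 44 genes, 5 of them called, had a mean under 0.5 FPKM in a label. Of the 35 genes above it in both labels, 20 were called. Among all tested genes, 803 had a mean under 0.5 FPKM in a label, and 269 of these were called. Of the 10787 above it in both labels, 4005 were called. The libraries of the labels did not overlap in 27 of the 44 genes, with 19 higher and 8 lower under the male label, and in 50.1% of all tested genes, with 37.9% higher and 12.1% lower.

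**Figure D1:**
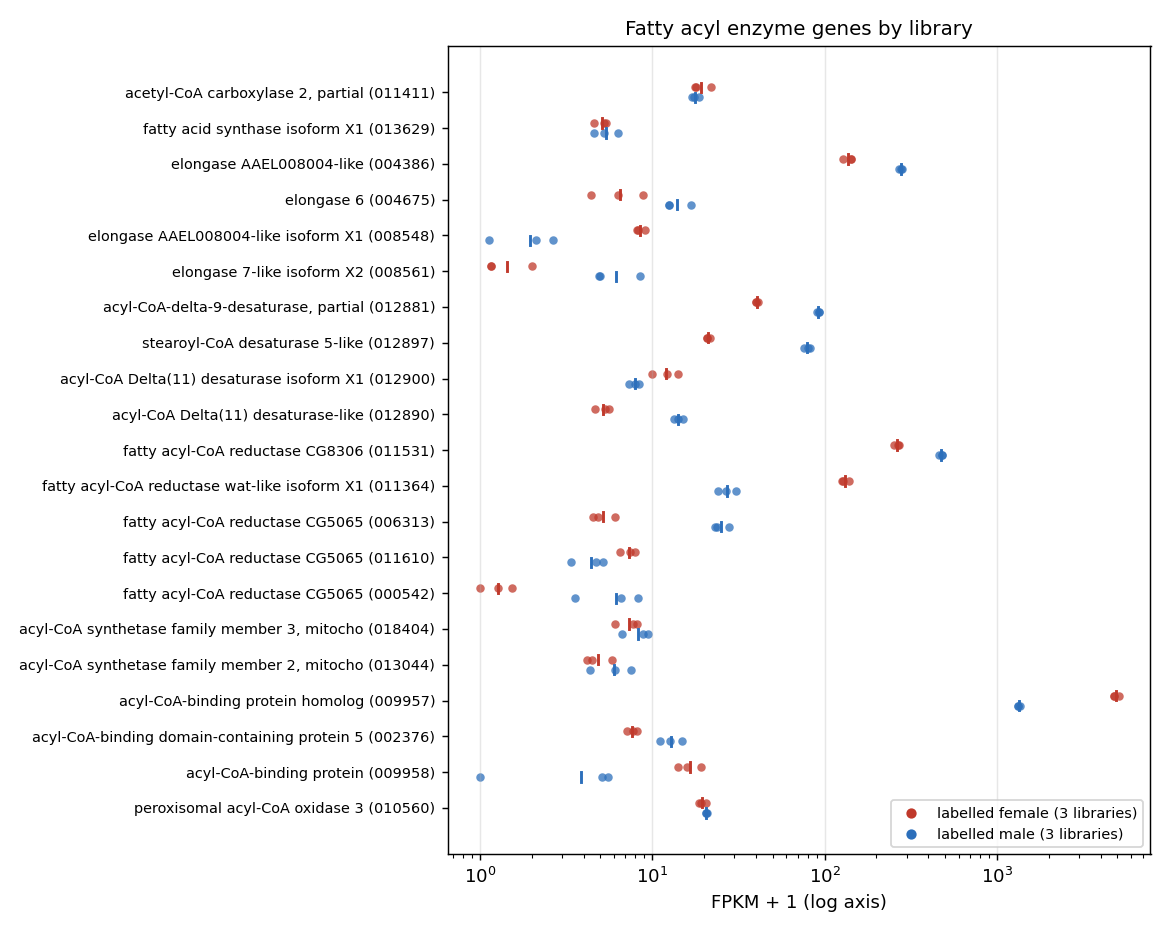
FPKM + 1, on a log axis, of abundant and most changed fatty acyl enzyme genes of each class, by label. Each point is a library and each tick the mean of a label. In FPKM, the acyl-CoA-binding protein homolog stands highest, between 4779.9 and 5076 FPKM under the female label and between 1319.8 and 1357 FPKM under the male label.

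Desaturases had 11 genes, of which 6 were tested, 3 rose and 1 fell in the male-labelled relative to the female-labelled libraries. The gene named acyl-CoA-delta-9-desaturase, partial (GWHGABGR012881) was the most abundant of them, and its best hit is a protein of Antheraea pernyi itself. Delta-9 desaturases place a double bond in the middle of stearic and palmitic acid and supply the cell's common monounsaturated fatty acids. Its values were 39.9, 39.0 and 39.1 FPKM in female-labelled replicates 1, 2 and 3 and 88.9, 91.7 and 91.4 FPKM in male-labelled replicates 1, 2 and 3. All male-labelled libraries lay above all female-labelled ones (log2 fold change 1.18 with SE 0.06, limma adjusted p = 9.26e-07).

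A stearoyl-CoA desaturase 5-like gene (GWHGABGR012897), named for a mammalian delta-9 desaturase, stood at 20.7, 19.8 and 19.7 FPKM in the female-labelled and at 81.7, 75.2 and 78.9 FPKM in the male-labelled libraries. With a log2 fold change of 1.92 (SE 0.07, limma adjusted p = 1.49e-07) it had the largest change of the called desaturases. An acyl-CoA Delta(11) desaturase-like gene (GWHGABGR012890) had 4.35, 4.63 and 3.64 FPKM under the female label and 13, 12.4 and 14 FPKM under the male label. Delta-11 desaturases are known for making pheromone precursors in moth pheromone glands. Its libraries did not overlap either (log2 fold change 1.45 with SE 0.14, limma adjusted p = 8.25e-05). All 3 genes kept their call after rescaling, at log2 fold changes of 0.93, 1.67 and 1.22 for GWHGABGR012881, GWHGABGR012897 and GWHGABGR012890.

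A short model named acyl-CoA Delta(11) desaturase isoform X1 (GWHGABGR012900, recovered coding length 183 bases) went the other way. It had 8.92, 11.2 and 13.1 FPKM in the female-labelled and 6.98, 7.39 and 6.36 FPKM in the male-labelled libraries. The libraries did not overlap, and the gene passed the test (log2 fold change -0.60 with SE 0.16, limma adjusted p = 0.0194). It rested on 67 reads against 36, and its limma adjusted p was 0.0565 without female-labelled replicate 2, 0.0672 without female-labelled replicate 3, 0.0593 without male-labelled replicate 3 and 0.106 when the recovered reads were tested. A short model may be a fragment of a neighbouring gene, which was not tested. How reads of similar desaturases were counted was not tested either.

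The remaining tested desaturases did not pass the test. Another stearoyl-CoA desaturase 5-like gene (GWHGABGR012896) had 0.387, 0.764 and 0 FPKM in the female-labelled and 0.91, 1.11 and 1.02 FPKM in the male-labelled libraries, or 12 reads against 27 (log2 fold change 0.58, limma adjusted p = 0.108). Sphingolipid delta(4)-desaturase DES1 (GWHGABGR011482), which acts on ceramides and not on fatty acyl-CoA, entered by its name with 23.5, 15.9 and 26.0 FPKM against 25.0, 30.5 and 24.7 FPKM (log2 fold change 0.30, limma adjusted p = 0.212). Its libraries overlapped. The 5 desaturases below the minimum had 10 and 12 reads in all. They hold the other gene with a best hit in Antheraea pernyi, an acyl-CoA-delta-6-desaturase (GWHGABGR015658) with 3 reads in the female-labelled and 0 reads in the male-labelled libraries, and 4 further genes named as delta-11 desaturases. At such depth no difference between labels was detectable for these genes.

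Elongases had 16 genes, of which 11 were tested, 5 rose and 1 fell, or 5 and 2 after rescaling. These membrane enzymes condense an acyl-CoA with malonyl-CoA in the endoplasmic reticulum. The 3 abundant genes share a best-hit name, protein AAEL008004, taken from a mosquito, and have close identifiers, yet they did not move alike. GWHGABGR004386 had 141, 142 and 127 FPKM in the female-labelled and 271, 279 and 277 FPKM in the male-labelled libraries. It rose to about the same level in all male-labelled libraries (log2 fold change 1.01 with SE 0.05, limma adjusted p = 1.59e-06). GWHGABGR004384 had 98.9, 105 and 109 FPKM under the female label and 184, 182 and 173 FPKM under the male label, again without overlap (log2 fold change 0.78 with SE 0.06, limma adjusted p = 1.15e-05). GWHGABGR004383 had 179, 181 and 169 FPKM and 168, 177 and 159 FPKM. Its libraries overlapped on the deposited scale (log2 fold change -0.07, limma adjusted p = 0.367), whereas after rescaling it was lower in the male-labelled libraries (log2 fold change -0.32, limma adjusted p = 0.00214).

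Elongation of very long chain fatty acids protein 6 (GWHGABGR004675), named for an enzyme that in mammals lengthens palmitic acid, had 5.38, 7.88 and 3.40 FPKM in the female-labelled and 15.9, 11.5 and 11.5 FPKM in the male-labelled libraries. It rose by 1.14 on the log2 scale (SE 0.26, limma adjusted p = 0.00891). Among the protein 7-like genes, GWHGABGR008561 rose from 0.996, 0.164 and 0.169 FPKM to 3.90, 4.0 and 7.56 FPKM (log2 fold change 2.09 with SE 0.31, limma adjusted p = 0.00101). That was 8 reads against 80, a ratio of 11.6 after correction for library totals, with an exact 95% interval of 5.62 to 27.8 that covers counting error only. A protein 4-like gene (GWHGABGR005172) rose on 8 reads against 43, a ratio of 6.25 (exact 95% interval 2.90 to 15.4; log2 fold change 1.12, limma adjusted p = 0.0126).

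The elongase that fell was a further AAEL008004-like gene (GWHGABGR008548). It had 7.17, 8.15 and 7.29 FPKM in the female-labelled libraries and 0.128, 1.12 and 1.65 FPKM in the male-labelled ones. The libraries lay far apart (log2 fold change -2.20 with SE 0.30, limma adjusted p = 0.00068), and the reads were 208 against 23, a ratio of 7.78 (exact 95% interval 5.05 to 12.5). The 4 tested elongases that passed on neither scale, GWHGABGR008557, GWHGABGR008558, GWHGABGR008562 and GWHGABGR016000, had log2 fold changes of 0.27, -0.46, 0.07 and 0.58. The 5 below the minimum had 30 reads in the female-labelled and 17 reads in the male-labelled libraries. Summed over the class, elongases stood at 443 ± 14.5 FPKM in the female-labelled and 656 ± 13.3 FPKM in the male-labelled libraries (SD, n = 3), a log2 ratio of 0.57, or 0.31 after rescaling. Desaturases summed to 97.3 ± 5.19 FPKM against 218 ± 1.27 FPKM (SD, n = 3), a log2 ratio of 1.16, or 0.90 after rescaling.

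**Figure D2:**
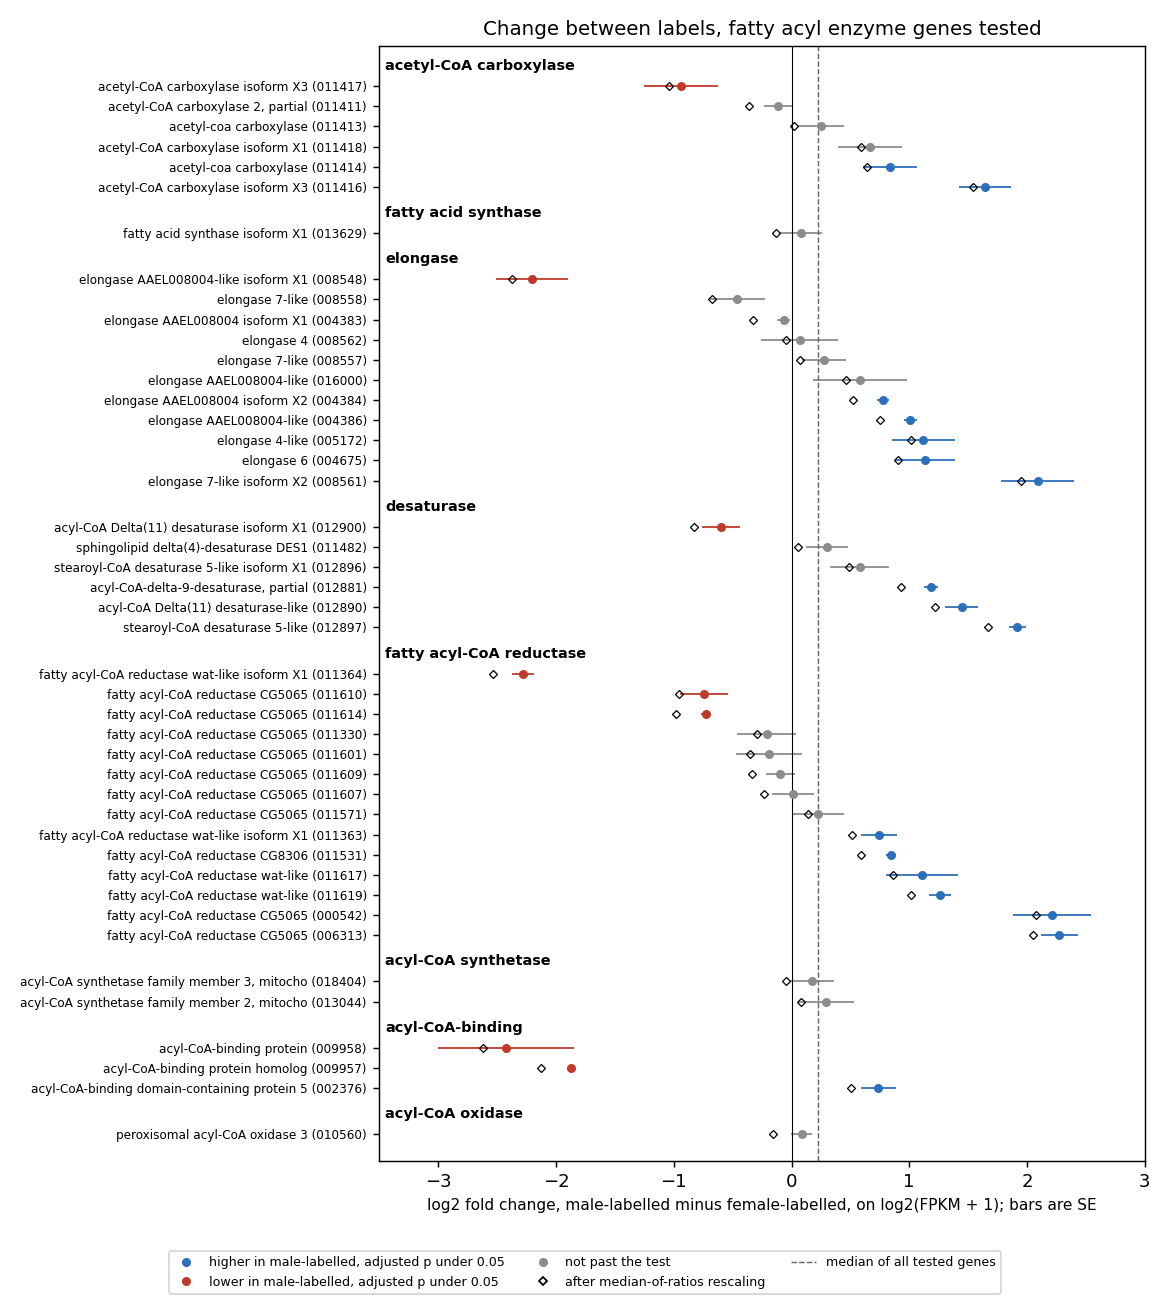
Log2 fold change, male-labelled minus female-labelled libraries, of the 44 fatty acyl enzyme genes tested, by role, with SE bars and the value after median-of-ratios rescaling. Called changes run from -2.42 to 2.28, and most values shift to the left after rescaling.

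Fatty acyl-CoA reductases formed the largest family, with 24 genes, of which 14 were tested, 6 rose and 3 fell. After rescaling the calls were 5 and 3. The most abundant was named putative fatty acyl-CoA reductase CG8306 after a Drosophila gene (GWHGABGR011531). It had 266, 252 and 270 FPKM in the female-labelled and 476, 481 and 460 FPKM in the male-labelled libraries. No library overlapped (log2 fold change 0.84 with SE 0.04, limma adjusted p = 9.58e-07). The next in level, a CG5065-named gene (GWHGABGR011614), did the reverse, with 202, 198 and 199 FPKM against 123, 117 and 122 FPKM (log2 fold change -0.72 with SE 0.04, limma adjusted p = 4.32e-06). The most abundant reductase was thus higher under the male label and the next lower. The class sum was 672 ± 11.3 FPKM under the female label and 759 ± 9.19 FPKM under the male label (SD, n = 3). The log2 ratio of these sums was 0.18 as deposited and -0.08 after rescaling.

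Larger changes were seen at lower levels. A CG5065-named gene (GWHGABGR006313) rose from 5.12, 3.84 and 3.56 FPKM to 22.1, 22.8 and 26.9 FPKM, 5.74-fold between the means (log2 fold change 2.28 with SE 0.15, limma adjusted p = 8.5e-06). Its neighbour in the numbering, a fatty acyl-CoA reductase 1-like gene below the minimum (GWHGABGR006312), had 0 reads in the female-labelled and 16 reads in the male-labelled libraries. With 3 reads set as the floor for the female-labelled group the ratio was 6.20, which leaves out the counting error of the 16 reads. Another CG5065-named gene (GWHGABGR000542) had 0.27, 0 and 0.549 FPKM against 7.29, 2.58 and 5.56 FPKM (log2 fold change 2.21 with SE 0.33, limma adjusted p = 0.00108). The reads behind it were 9 against 147, a ratio of 19.0 (exact 95% interval 9.73 to 42.3).

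The wat-like reductases are named for the Drosophila gene waterproof, which is needed for the embryonic tracheae to fill with gas. A pair with consecutive identifiers moved in opposite directions. GWHGABGR011364, of 489 coding bases, had 127, 138 and 126 FPKM in the female-labelled and 25.7, 23.2 and 29.6 FPKM in the male-labelled libraries. Every male-labelled library lay far below every female-labelled one, 4.98-fold between the means (log2 fold change -2.28 with SE 0.09, limma adjusted p = 3.21e-07). GWHGABGR011363, of 1149 coding bases, had 6.15, 4.83 and 4.73 FPKM against 8.90, 8.97 and 10.3 FPKM and was higher under the male label (log2 fold change 0.74 with SE 0.15, limma adjusted p = 0.00579), a call lost under quantile normalization (limma adjusted p = 0.0728). Both have the same best-hit name, and whether they are pieces of the same gene was not tested. Another wat-like gene (GWHGABGR011619) rose from 12.9, 13.1 and 12.4 FPKM to 29.9, 33.8 and 32.8 FPKM (log2 fold change 1.26 with SE 0.09, limma adjusted p = 1.37e-05).

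A pair of further calls among reductases was lost when certain libraries were left out. The short wat-like model GWHGABGR011617 had 20.3, 15.3 and 6.87 FPKM in the female-labelled and 29.4, 27.9 and 30.2 FPKM in the male-labelled libraries (log2 fold change 1.11 with SE 0.31, limma adjusted p = 0.0231). The call was lost after rescaling (limma adjusted p = 0.0621) and without male-labelled replicate 1, 2 or 3 (limma adjusted p = 0.0638, 0.0522 and 0.0608). GWHGABGR011610, named for CG5065, had 5.49, 6.99 and 6.39 FPKM against 4.16, 3.74 and 2.36 FPKM (log2 fold change -0.74 with SE 0.20, limma adjusted p = 0.0221). Without female-labelled replicates 2 or 3 or male-labelled replicate 3 its limma adjusted p was 0.0723, 0.062 and 0.0579. CG5065-named GWHGABGR011607 had 20.4, 17.9 and 16.8 FPKM against 24.8, 17.0 and 14.8 FPKM, with overlapping libraries and a log2 fold change of 0.01. GWHGABGR011609, with 16.2, 13.5 and 13.2 FPKM against 12.4, 14.4 and 13.2 FPKM, overlapped too (log2 fold change -0.09). GWHGABGR011330, GWHGABGR011571 and GWHGABGR011601 did not pass the test either. The 10 reductases below the minimum gave 26 reads in the female-labelled and 63 reads in the male-labelled libraries. In the authors' annotation 22 genes of all 74 carried the term wax biosynthetic process and 24 the term ether lipid biosynthetic process.

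Acyl-CoA-binding proteins, small cytosolic carriers that hold long-chain acyl-CoA and pass it between enzymes, had 3 genes, and all were called. The acyl-CoA-binding protein homolog (GWHGABGR009957, 273 coding bases) was by far the most abundant of the 74 genes, with 5076, 4779.9 and 4796 FPKM in the female-labelled and 1327, 1357 and 1319.8 FPKM in the male-labelled libraries. Its female-labelled libraries were 3.66-fold higher on average and its labels did not overlap (log2 fold change -1.87 with SE 0.03, limma adjusted p = 9.92e-10, or -2.13 after rescaling). It rested on 44082 reads against 10366. The gene alone made up 79.0% of the summed FPKM of the 74 genes under the female label and 43.7% under the male label. Together the 74 genes took 0.450% to 0.472% of all FPKM in the female-labelled and 0.225% to 0.233% in the male-labelled libraries. Without acyl-CoA-binding proteins the sum went the other way, at 1274.5 ± 19.2 FPKM against 1703 ± 16 FPKM (SD, n = 3), a log2 ratio of 0.42, or 0.16 after rescaling.

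Next to it in the numbering, a putative acyl-CoA-binding protein (GWHGABGR009958) was also lower in the male-labelled libraries. It had 18.3, 13.2 and 15.0 FPKM under the female label and 4.13, 0 and 4.51 FPKM under the male label (log2 fold change -2.42 with SE 0.58, limma adjusted p = 0.0119). With 132 reads against 21 the ratio was 5.41 (exact 95% interval 3.40 to 9.03), and the call was lost with a pseudocount of 0.1, for which the 0 in male-labelled replicate 2 weighs more. How reads of similar copies were counted for these neighbours was not tested. Acyl-CoA-binding domain-containing protein 5 (GWHGABGR002376), which in mammals links peroxisomes to the endoplasmic reticulum, moved the other way, with 6.12, 7.19 and 6.72 FPKM against 10.04, 11.7 and 13.8 FPKM (log2 fold change 0.74 with SE 0.15, limma adjusted p = 0.00554). Under quantile normalization this call was lost (limma adjusted p = 0.0606).

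**Figure D3:**
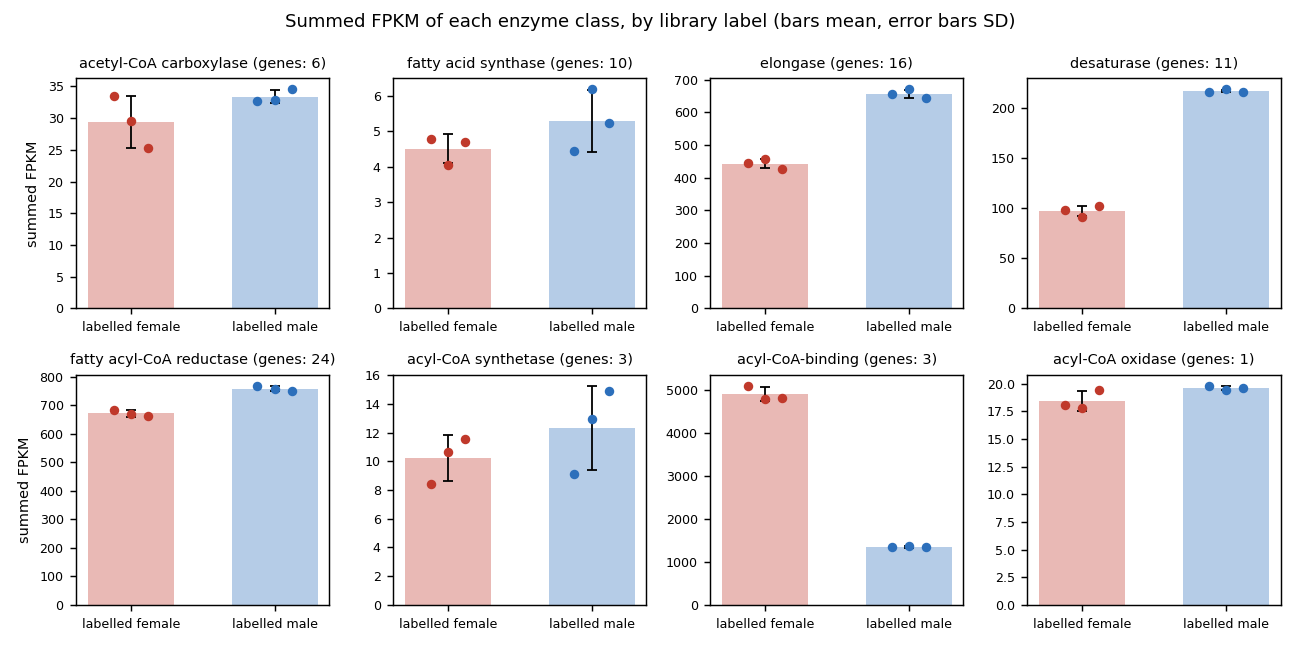
Summed FPKM of each class of fatty acyl enzyme genes in each library, with the mean and SD by label. Acyl-CoA-binding proteins are higher under the female label, desaturases and elongases are higher under the male label, and the synthetase sums of the labels lie within their spread.

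At the start of the pathway, all 6 acetyl-CoA carboxylase models were tested, 2 rose and 1 fell (1 and 2 after rescaling), and the longest did not pass. This model, acetyl-CoA carboxylase 2, partial (GWHGABGR011411, 4014 coding bases), had 21.1, 17.0 and 16.8 FPKM in the female-labelled and 16.5, 16 and 17.8 FPKM in the male-labelled libraries. These overlapped on the deposited scale (log2 fold change -0.11, limma adjusted p = 0.48), and after rescaling the gene was lower under the male label (log2 fold change -0.36, limma adjusted p = 0.0445). The 6 models add up to 6336 coding bases with close identifiers, and Drosophila has a single gene for the enzyme. Whether they are pieces of the same gene was not tested.

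The short carboxylase models went in both directions on few reads. GWHGABGR011414 had 2.98, 1.36 and 1.98 FPKM against 5.24, 3.94 and 4.14 FPKM (log2 fold change 0.84 with SE 0.23, limma adjusted p = 0.0227). Its limma adjusted p was 0.0681 after rescaling and 0.0667, 0.0599 and 0.0769 without female-labelled replicate 2, female-labelled replicate 3 or male-labelled replicate 1. GWHGABGR011416 had 1 read in the female-labelled and 16 reads in the male-labelled libraries, a ratio of 18.6 with an exact 95% interval of 2.89 to 780 (log2 fold change 1.64, limma adjusted p = 0.000578). The equally short GWHGABGR011417 had 12 reads against 2, a ratio of 5.16 (exact 95% interval 1.15 to 47.5), and fell (log2 fold change -0.94 with SE 0.32, limma adjusted p = 0.0467). Without female-labelled replicate 2, female-labelled replicate 3 or male-labelled replicates 1, 2 or 3 its limma adjusted p was 0.136, 0.0805, 0.0714, 0.0694 and 0.134. GWHGABGR011413 and GWHGABGR011418 did not pass, at log2 fold changes of 0.25 and 0.67.

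Fatty acid synthase was represented by 10 genes, of which a single gene was tested. That gene (GWHGABGR013629, 6168 coding bases) had 4.42, 3.63 and 4.23 FPKM in the female-labelled and 3.62, 5.30 and 4.29 FPKM in the male-labelled libraries. The libraries overlapped (log2 fold change 0.08 with SE 0.18, limma adjusted p = 0.766). The other 9 synthases had means of at most 0.25 FPKM and 87 reads against 139 in all. Synthases summed to 4.51 ± 0.402 FPKM under the female label and 5.28 ± 0.870 FPKM under the male label (SD, n = 3), with overlapping libraries and a log2 ratio of 0.23 as deposited and -0.028 after rescaling.

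Acyl-CoA synthetases and the oxidase did not pass the test. Acyl-CoA synthetase family member 3, mitochondrial (GWHGABGR018404), which in mammals activates malonic acid, had 5.08, 7.22 and 6.73 FPKM against 5.67, 7.83 and 8.43 FPKM (log2 fold change 0.17, limma adjusted p = 0.508). Family member 2 (GWHGABGR013044) had 3.18, 3.45 and 4.85 FPKM against 3.36, 5.11 and 6.50 FPKM (log2 fold change 0.29, limma adjusted p = 0.374). In both genes the libraries of the labels overlapped. A short-chain acyl-CoA synthetase, the remaining gene of the class, was below the minimum with 2 reads against 1. Peroxisomal acyl-CoA oxidase 3 (GWHGABGR010560), which starts the shortening of fatty acids in peroxisomes, had 18.1, 17.8 and 19.4 FPKM against 19.8, 19.4 and 19.6 FPKM (log2 fold change 0.09, limma adjusted p = 0.49). A p above the threshold does not show that these genes were equal between labels.

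Other genes of fatty acid metabolism were listed by name for comparison, 72 in all and none of the 74 among them. Of 63 tested, 15 were higher (23.8%) and 5 lower (7.9%) in the male-labelled libraries, beside 27.8% and 9.03% of all tested genes. After rescaling 7 were higher (11.1%) and 21 lower (33.3%), beside 14.3% and 17.6%, so the balance of directions turned with the scale. Their median log2 fold change was 0.10 as deposited and -0.15 after rescaling.

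All 4 carnitine acyltransferases, which carry acyl groups into mitochondria for oxidation, were higher in the male-labelled libraries, 3 of them after rescaling too and 2 with limma-voom on the recovered reads. The call of the carnitine O-acetyltransferase-like gene (GWHGABGR006958, log2 fold change 0.29, limma adjusted p = 0.0396) was also lost in all 6 fits that left out 1 library and with the replicate numbers as a block (limma adjusted p = 0.0618). Carnitine O-palmitoyltransferase 1 (GWHGABGR000353) had 7.44, 8.67 and 7.96 FPKM in the female-labelled and 23.1, 16.6 and 19.5 FPKM in the male-labelled libraries (log2 fold change 1.19 with SE 0.14, limma adjusted p = 0.00028). A muscle-like fatty acid-binding protein (GWHGABGR013318), a carrier of free fatty acids, rose from 4.38, 5.40 and 3.34 FPKM to 12.6, 9.81 and 10.2 FPKM (log2 fold change 1.15 with SE 0.18, limma adjusted p = 0.00155).

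Of the enzymes that complete each round of elongation after the elongase, 4 were tested and none was called higher on either scale. In the male-labelled libraries 2 were lower as deposited and 4 after rescaling. Very-long-chain 3-oxoacyl-CoA reductase (GWHGABGR013179), which acts right after the elongase, had 26.5, 29.8 and 22.5 FPKM against 20.4, 17.0 and 19.7 FPKM (log2 fold change -0.44 with SE 0.12, limma adjusted p = 0.0239). Without female-labelled replicate 1, female-labelled replicate 2 or male-labelled replicate 2 its limma adjusted p was 0.0656, 0.0791 and 0.0722. Cytochrome b5 hands electrons to desaturases. Of 9 tested genes with cytochrome b5 in their name, 2 were higher and 1 lower in the male-labelled libraries, or 1 and 1 after rescaling. The name also takes in reductases and a domain-containing protein. The higher call lost after rescaling was that of NADH-cytochrome b5 reductase 2 (GWHGABGR005547, limma adjusted p = 0.143 after rescaling). The abundant gene named Cytochrome b5 (GWHGABGR008606) fell from 417, 410.3 and 416 FPKM to 279.8, 298 and 282 FPKM (log2 fold change -0.53 with SE 0.04, limma adjusted p = 1.37e-05). A cytochrome b5-like gene (GWHGABGR013989) rose from 41.8, 39.1 and 40.6 FPKM to 81.5, 70.9 and 59.2 FPKM (log2 fold change 0.77 with SE 0.11, limma adjusted p = 0.000773), and it was called after rescaling too. The alpha subunit of electron transfer flavoprotein (GWHGABGR007136), which takes electrons from acyl-CoA dehydrogenases, was the most abundant gene of the wider list, at 512, 500.1 and 518 FPKM against 409, 405 and 417 FPKM (log2 fold change -0.31, limma adjusted p = 0.000138). Both genes of the cytochrome P450 4G family, which in Drosophila completes hydrocarbon synthesis, were below the minimum with 0 reads in the female-labelled and 12 and 8 reads in the male-labelled libraries.

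**Figure D4:**
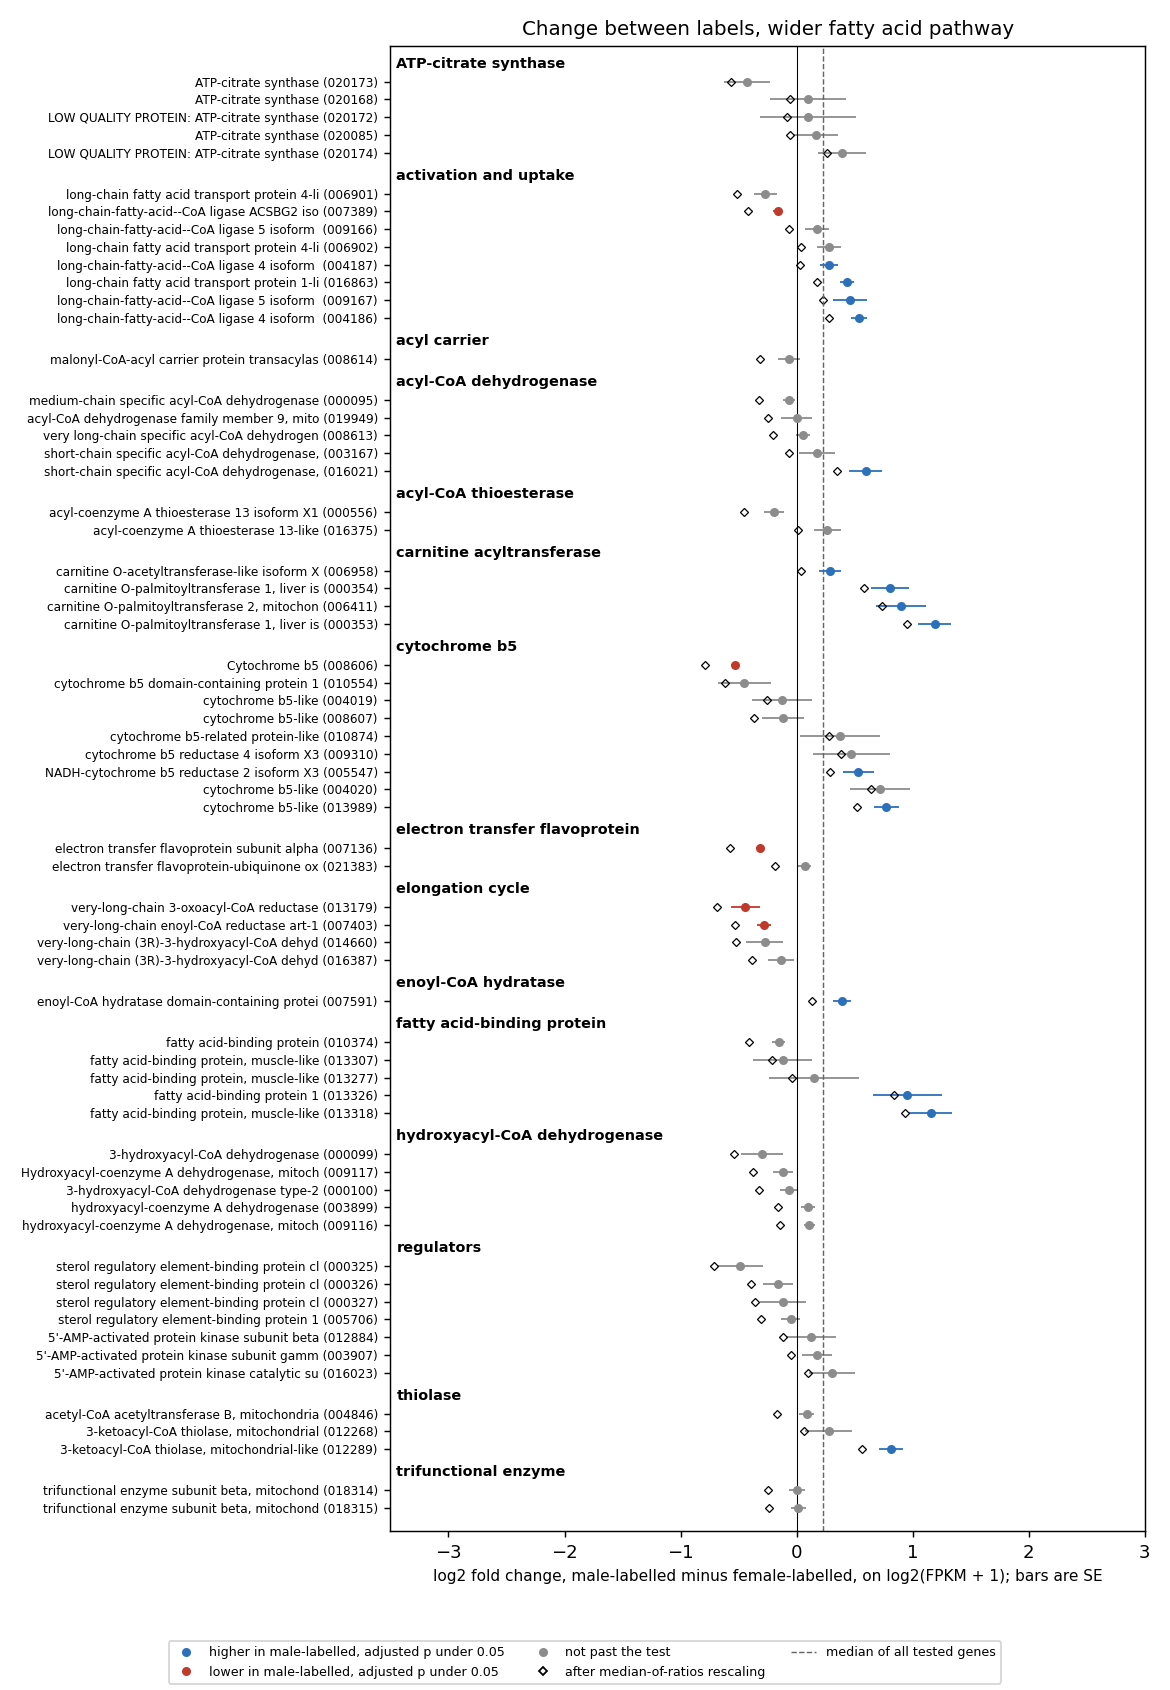
Log2 fold change, male-labelled minus female-labelled libraries, of the 63 other fatty acid metabolism genes tested, by step, with SE bars and the value after median-of-ratios rescaling. All 4 carnitine acyltransferases lie to the right of 0, and more values lie to the left of 0 after rescaling than before it.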

How the data were processed

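The authors deposited FPKM per gene for 6 antennal libraries, with best-hit names. Per the submitters' processing notes, which state no roles, the tools were HTSeq, HISAT2, Trimmomatic and R 3.2.0. Per the labels' protocols, the mRNA kit was stranded. The genome build is not given in the sources used here.

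Genes with a mean of at least 0.5 FPKM (11590 of 16458) were tested on the log2(FPKM + 1) scale by limma 3.58.1 (R 4.3.3), 2-sided, with label as the only term and its variance trend, at a Benjamini-Hochberg adjusted p of 0.05. Log2 fold changes are male-labelled minus female-labelled and understate the change of low genes. The main test was also run on simulated reads in which few genes were changed, as many up as down. That simulation cannot check calls under the wide shift between labels seen here. FPKM steps gave whole reads within 0.01 read for 16458 of 16458 genes. The shortest fitting length was taken, so reads and lengths can be too low by a common factor. Lengths are called coding because 92.1% of those for 11361 genes above 30 reads divide by 3. Read ratios have exact 95% intervals, and floors are 3 reads over a group.

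The members and lists were chosen with earlier results of these data known, and wrong matches in the wider and marker lists were removed after names and values were seen. Genes given with values in every library are the most abundant of each class, the 2 largest called changes each way in a class with at least 5 FPKM in the higher label, and all tested genes of small classes. Others were added after their values were seen. The planned quasi-likelihood count test was not run, because the deposited unit is FPKM. Limma-voom on the recovered reads with median-of-ratios library sizes was added after seeing the data.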

Additional observations from a re-analysis of the deposited data

How the results depend on the processing

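Scaling moved the series-wide counts most. Genes higher and lower in the male-labelled libraries numbered 3227 and 1047 as deposited, 1656 and 2036 after median-of-ratios rescaling, 1636 and 1688 after quantile normalization, and 1887 and 2226 with limma-voom on recovered reads. Wider pathway genes higher and lower, 15 and 5 as deposited, became 7 and 21, 6 and 16, and 8 and 24 in the same order. Fatty acyl enzyme genes higher stayed between 13 and 17 in all settings, and those lower were 10 under rescaling and under quantile normalization. Leaving out single libraries gave 2566 to 2735 and 878 to 951 for all genes, 11 to 14 and 4 to 6 for wider genes, and 16 to 17 and 5 to 8 for fatty acyl enzyme genes, with 5 lower without female-labelled replicate 2, female-labelled replicate 3 or male-labelled replicate 3. Without the sphingolipid desaturase (GWHGABGR011482) and the short-chain acyl-CoA synthetase (GWHGABGR017200) the calls were 17 and 8. Of the 25 called genes, 17 kept the call under every alternative that tested them and 8 lost it under at least 1. Of those that kept it, GWHGABGR005172 and GWHGABGR011416 were too low to be tested with a minimum mean of 2 FPKM.

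After rescaling, the log2 ratios of class sums were 0.31 for elongases, 0.90 for desaturases, -0.083 for reductases, -2.12 for acyl-CoA-binding proteins, -0.076 for carboxylases, -0.17 for the oxidase, -0.028 for fatty acid synthases and 0.01 for synthetases. The sign turned for reductases, carboxylases, the oxidase and fatty acid synthases. The rescaling lowers every male-labelled value relative to the female-labelled ones by its construction. Some genes of the wider list turned sign after rescaling and were then called lower, such as GWHGABGR008613 (log2 fold change 0.05 as deposited and -0.20 after rescaling). The fatty acyl enzyme genes whose sign turned were called in no direction. Under rescaling, quantile normalization and limma-voom the log2 fold changes were -0.043, -0.20 and -0.25 for GWHGABGR008562, -0.16, -0.17 and -0.17 for GWHGABGR010560, -0.23, -0.24 and -0.25 for GWHGABGR011607, -0.13, -0.25 and -0.16 for GWHGABGR013629, and -0.050, -0.14 and -0.058 for GWHGABGR018404. Under quantile normalization alone they were -0.049 for GWHGABGR008557, -0.067 for GWHGABGR011413 and -0.038 for GWHGABGR013044. Without single libraries they ranged from -0.22 to 0.37 for GWHGABGR008562, -0.46 to 0.052 for GWHGABGR011601, -0.19 to 0.16 for GWHGABGR011607 and -0.039 to 0.18 for GWHGABGR013629.

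Same-numbered libraries did not deviate together (correlations 0.005, 0.006 and -0.004), so no pairing by number showed in the values. The labels do not say whether the numbers pair libraries. A replicate block gave 2891 and 954 genes, and 17 and 8 fatty acyl enzyme genes. Genes with few reads are limited by depth.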
